A study of Strongylocentrotus purpuratus with 8 samples.

Results

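Purple sea urchin (Strongylocentrotus purpuratus) embryos at 48 hours post fertilisation (hpf) were compared with embryos at 24 hpf. The comparison uses 4 of the 8 libraries of a MethylC-seq series, 2 replicates of 48 hpf embryos and 2 replicates of 24 hpf embryos, assigned by their titles. The 4 others are 72 hpf embryos and adult tube feet, the walking appendages of the adult, and serve here for the spread between replicates and as separate readings of the same regions. All embryos are labelled as untreated. The series calls the replicates biological, and the number of embryos or parents behind each library is not given in the sources used here.

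Cytosine methylation at CpG sites in sea urchins, as in many other invertebrates, is mosaic: long methylated stretches, many of them in the bodies of transcribed genes, alternate with unmethylated DNA. Maintenance methyltransferases copy the pattern after each round of DNA replication, whereas TET enzymes can start its removal by oxidising the methyl group. In the usual cultures of this species, the hours between these stages take the embryo from blastula to gastrula, when germ layers form and cell types begin to diverge. MethylC-seq reads methylation from bisulfite treated DNA, in which only methylated cytosines are still read as cytosines, so the level of a site is the share of its reads that remain cytosine. In DNA from whole embryos, a level between the extremes cannot distinguish a change in part of the cells from a change on part of the alleles.

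The 48 hpf libraries held 126381599 and 94446436 reads at CpG sites, and the 24 hpf libraries 90132169 and 75377025. A read that spans several CpG sites is counted at each, so these numbers, and all numbers of calls below, exceed the number of separate DNA molecules. On the unmethylated lambda phage DNA added before conversion, 0.249% and 0.253% of calls were methylated in the 48 hpf libraries, and 0.112% and 0.232% in the 24 hpf libraries. 24 hpf replicate 2 over-represents methylated DNA. In windows of 8 to 11 CpG sites, those at 80% or more at 72 hpf had 1.88 times the calls per CpG of those at 20% or less in this library, against 0.942 and 1.14 times in the 48 hpf libraries and 0.929 times in 24 hpf replicate 1. At 20129 windows with 30% to 70% methylation at 72 hpf, the odds of a methylated call relative to those at 72 hpf were 0.946 and 1.28 in 48 hpf replicates 1 and 2, and 0.942 and 1.78 in 24 hpf replicates 1 and 2. Each 24 hpf library is therefore given separately throughout.

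The overall level did not move in the same direction against both 24 hpf libraries. With reads pooled over all CpG sites, it was 24.4% and 29.8% in 48 hpf replicates 1 and 2, and 24.2% and 42.2% in 24 hpf replicates 1 and 2. The difference of the means was -6.13 points (48 hpf 27.1% ± 3.81, 24 hpf 33.2% ± 12.8, SD, n = 2 each), but 2.90 points when 24 hpf was replicate 1 alone and -15.2 points when it was replicate 2 alone. Groups of 2 libraries each allow 6 splits, with 0.333 as the smallest two-sided exact permutation p, so no test was run on such single values. With each tested 500 bp window given equal weight, the mean level was 31.5% and 32.5% at 48 hpf, and 32.1% and 34.3% at 24 hpf. The 48 hpf libraries lie on either side of 24 hpf replicate 1 here and below 24 hpf replicate 2.

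Changes were then tested at 3 scales, with a quasi-binomial model in which limma moderates the spread between replicates over all 8 libraries. A feature was called at a Benjamini-Hochberg adjusted p below 0.05 and a difference of at least 20 percentage points. Windows of 500 bp had to hold 4 CpG sites or more and 20 calls in every library. Among the 367598 that did, 0 were called (0% of those tested), and the smallest adjusted p was 0.112. An unadjusted p below 0.05 was found for 11226 windows (3.05%), 1996 of them higher and 9230 lower at 48 hpf, and limma on log2 ratios called 0, with 9211 windows below that unadjusted p. Windows close to 0% or 100% were given a p of 1, and among the 171660 that were fitted the share of the quasi-binomial model below an unadjusted p of 0.05 was 6.54%. Among 362537 windows of 200 bp, 0 were called (0%) by the quasi-binomial model and 0 by limma, with 10808 (2.98%) and 8507 windows at an unadjusted p below 0.05. Among 539235 single sites with at least 10 reads in every library, 9 were called, all lower at 48 hpf, which is 0.00167% of the sites tested. An unadjusted p below 0.05 was found for 17732 sites (3.29%), and limma on log2 ratios called 1, with 12751 sites at such a p. Over fitted features these shares were 6.48% of 166856 windows of 200 bp and 6.62% of 267699 sites.

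The calls depended on which library stood for 24 hpf. With replicate 2 alone at 24 hpf, 453 windows of 500 bp (447 lower, which is 0.122%), 318 windows of 200 bp (316 lower, 0.0872%) and 412 sites (all lower, 0.0764%) were called at 48 hpf. With replicate 1 alone, 0 features were called at each of these 3 scales. With the model allowing each library its own odds of a methylated call, set on windows of intermediate level at 72 hpf, 0 windows of 500 bp, 4 windows of 200 bp and 35 sites were called, all of them lower at 48 hpf.

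The 9 called sites lay in 4 windows on 4 scaffolds, in coordinates of the build of the files, Spur3.1. Their levels ran from 3.85% to 36.4% in the 48 hpf libraries and from 44.0% to 100% in the 24 hpf libraries, with 10 to 116 reads per library. The adjusted p-values of the quasi-binomial model moderated with limma ran from 0.0140 to 0.0488. The site with the smallest was at position 256182 of Scaffold1726. It read 12.9% and 25.6% at 48 hpf (31 and 39 reads), against 100% and 87.9% at 24 hpf (28 and 116 reads), and was the site that limma on log2 ratios also called, with an adjusted p of 0.0457. At 72 hpf it read 17.9% and 11.1%, and in adult tube feet 0 of 25 and 0 of 15 reads were methylated, which allows up to 12% and 20.0% for counting error alone. A second site in this window, at position 256150, read 26.7% and 25.7% at 48 hpf, against 82.1% and 85.7% at 24 hpf.

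Scaffold219 held 4 of the called sites, within positions 191354 to 191454. The site at 191450 read 13.7% and 12.5% at 48 hpf, against 70.8% and 72.0% at 24 hpf, and that at 191354 read 6.45% and 8.70% at 48 hpf, against 64.7% and 73.8% at 24 hpf. The largest change was at position 136649 of Scaffold911, with 9.52% and 10.0% at 48 hpf (21 and 20 reads), against 90% and 84.8% at 24 hpf (10 and 33 reads), a difference of -76.3 points between pooled reads. On Scaffold265, the site at 151678 read 10.0% and 25% at 48 hpf, against 94.1% and 91.3% at 24 hpf, and the site at 151718 read 16.0% and 36.4% at 48 hpf, against 94.1% and 93.9% at 24 hpf. The 48 and 24 hpf libraries did not overlap at any of the 9 sites. Every site within 100 bp of a called site with at least 5 reads in the 4 libraries also had a lower mean level at 48 hpf. Sites this close can be read from the same molecules, so they are not independent readings. In the 72 hpf libraries the 9 sites read from 3.85% to 30%, and 6 of them were at 0 methylated reads in both adult libraries. The spread between replicates in the model drew on these libraries too, and a group at 0 in both libraries adds nothing to it. Such zeros can favour a call, so they are not a separate reading here, and their part was not tested. The windows of 500 bp around these sites had adjusted p-values of 0.149 to 0.513 in the quasi-binomial model with limma, so none of these windows was called. The count of 9 fell to 0 without any one of 48 hpf replicate 1, 48 hpf replicate 2 and 24 hpf replicate 2. It was also 0 with a minimum of 5 or of 20 reads, in a fit on the 4 libraries compared and with the replicate number as a block.

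Most 500 bp windows differed little between stages, and the share that moved by 20 points or more was set largely by the 24 hpf library used. The mean over windows was -0.56 points for 48 hpf replicate 1 and 0.43 points for 48 hpf replicate 2 against 24 hpf replicate 1, and -2.76 and -1.77 points against 24 hpf replicate 2. A fall of at least 20 points was seen in 0.889% and 0.632% of windows against 24 hpf replicate 1, and in 4.87% and 3.30% against replicate 2. A rise of that size was seen in 0.700% and 1.63% of windows against replicate 1, and in 0.497% and 0.652% against replicate 2. Between the 24 hpf replicates themselves, 4.85% of windows were at least 20 points higher in replicate 2 than in replicate 1, and between the 48 hpf replicates 1.37%. Falls against 24 hpf replicate 2 were thus about as frequent as differences of that size between the 24 hpf replicates.

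**Figure D1:**
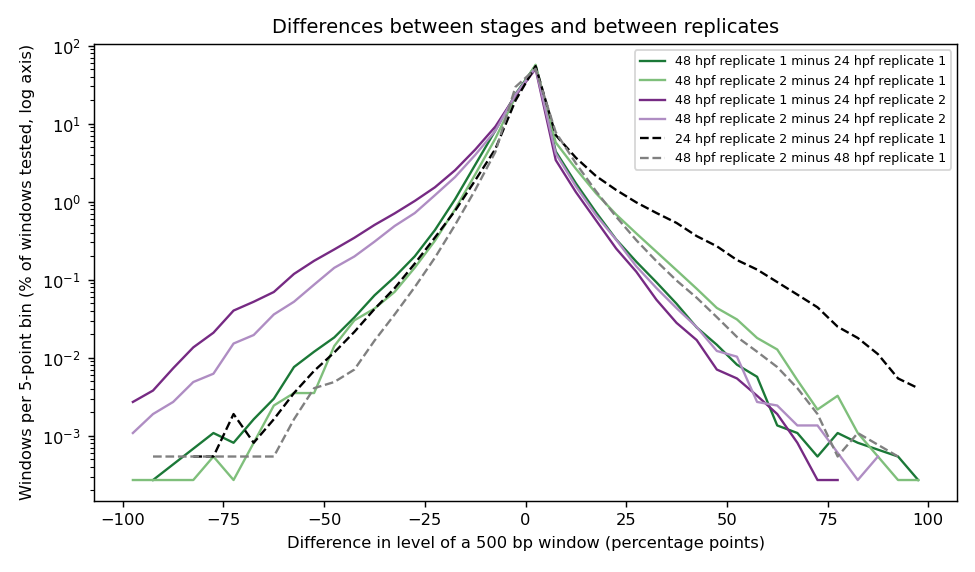
Distribution of differences in methylation level over 500 bp windows, as the percent of windows in each 5-point bin on a log axis, for the 4 pairs of a 48 hpf with a 24 hpf library (solid lines) and for the replicates of each stage (dashed lines). The pairs with 24 hpf replicate 2 have the wide left side, with falls of at least 20 points in 4.87% and 3.30% of windows, and the dashed line between the 24 hpf replicates has a right side as wide, with 4.85%.

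The change was described next by the number of CpG sites in a window. Windows with few CpG sites were the most methylated and were lower at 48 hpf in every pair of libraries. In 34429 windows of 4 to 7 CpG sites the mean level was 67.6% and 68.4% at 48 hpf, against 69.5% and 70.7% at 24 hpf, with differences of -1.89 and -1.07 points against 24 hpf replicate 1 and -3.09 and -2.28 points against replicate 2. In 78366 windows of 8 to 11 sites the differences were -1.08 and -0.27 points against replicate 1, and -2.49 and -1.69 points against replicate 2. In windows of 12 to 19 sites the direction was no longer shared, with -0.33 and 0.46 points against replicate 1. It parted further in 18356 windows of 30 sites or more, where the level was 15.1% and 17.5% at 48 hpf, against 14.8% and 20.8% at 24 hpf. There the differences were 0.24 and 2.67 points against replicate 1, and -5.72 and -3.30 points against replicate 2. The separation between the 24 hpf replicates grew with CpG number, from 1.20 points in windows of 4 to 7 sites to 5.97 points in those of 30 or more. Between the 48 hpf replicates it was 0.81, 0.81 and 0.79 points in the 3 classes up to 19 sites, 1.37 points at 20 to 29 and 2.42 points at 30 or more.

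To describe the change by starting level, windows were classed by one 24 hpf library and the change was taken against the other, so that the error of the classing library did not enter. At 80% or more, all 4 differences were negative. They were -2.62 and -1.54 points for 48 hpf replicates 1 and 2 against 24 hpf replicate 2 in windows classed by replicate 1, and -2.07 and -0.46 points against replicate 1 in windows classed by replicate 2. In each of the 4 classes below 80% the 4 differences did not share a direction. At 20% to 40% the differences were -17.9 and -11 points against replicate 2, but 0.60 and 4.65 points against replicate 1. At 40% to 60% they were -14.6 and -9.00 points against replicate 2, and 0.15 and 5.33 points against replicate 1. In unmethylated windows, at 20% or less, all were small, with -1.36 and -0.97 points against replicate 2, and 0.17 and 0.31 points against replicate 1.

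Libraries outside the comparison were also used to set the class. In 102839 windows at 80% or more at 72 hpf, the differences were -2.09 and -1.01 points against 24 hpf replicate 1, and -2.43 and -1.35 points against replicate 2. In 60768 windows at 80% or more in adult tube feet, the mean level was 86.0% and 87.2% at 48 hpf, against 87.9% and 88.7% at 24 hpf. The 72 hpf libraries had 88.6% and 88.0% there. In 39637 windows at 60% to 80% in adult tube feet the differences were also all negative, with -1.65 and -0.17 points against 24 hpf replicate 1, and -3.90 and -2.42 points against replicate 2. In the windows at 80% or more in adult tube feet, both 48 hpf libraries lay below the 24 and 72 hpf libraries, by a difference of group means of -1.68 points to 24 hpf, with 1.20 points between the 48 hpf replicates and 0.77 points between the 24 hpf replicates. Divided by CpG number, windows at 80% or more at 72 hpf had a difference of group means of -2.04 points at 4 to 7 sites, -1.75 at 8 to 11, -1.56 at 12 to 19, -1.51 at 20 to 29 and -1.58 at 30 or more. The one pair that went the other way was 48 hpf replicate 2 against 24 hpf replicate 1 at 30 sites or more, with 0.54 points.

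**Figure D2:**
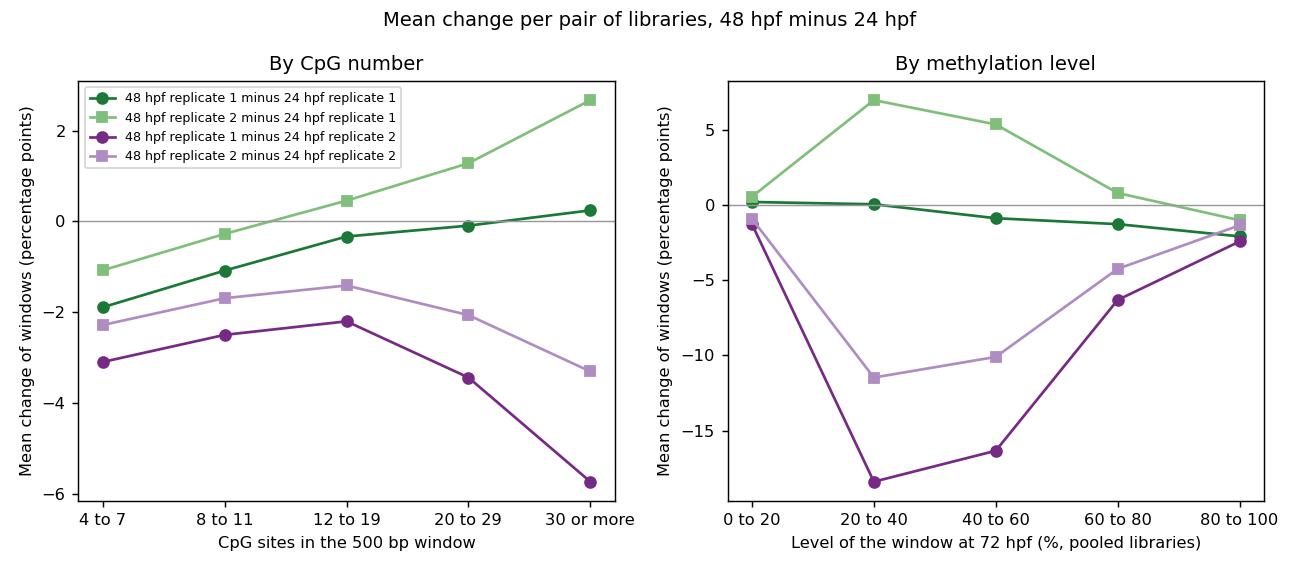
Mean change of 500 bp windows in percentage points, 48 hpf minus 24 hpf, for each of the 4 pairs of libraries, by the number of CpG sites (left) and by the level in the pooled 72 hpf libraries (right). All pairs lie below 0 at 4 to 11 CpG sites and at levels of 80% or more, whereas at 20% to 40% they spread from -18.4 to 6.97 points according to the libraries used.

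Few windows passed between the extremes. Windows between 20% and 80% made up 13.1% and 12.9% of all tested windows in the 48 hpf libraries, against 11.4% and 12% in the 24 hpf libraries. Of 101885 windows at 80% or more in 24 hpf replicate 1, 87.1% and 89.4% were also at 80% or more in 48 hpf replicates 1 and 2, and 91.3% in 24 hpf replicate 2. Of these windows, 12.9% and 10.6% were between 20% and 80% in the 48 hpf libraries, against 8.70% in 24 hpf replicate 2. Of 223962 windows at 20% or less in 24 hpf replicate 1, 98.6% and 97.4% stayed there in the 48 hpf libraries, against 95.3% in 24 hpf replicate 2. From 108830 windows at 80% or more in 24 hpf replicate 2, 81.4% and 85.2% were at 80% or more in the 48 hpf libraries, against 85.5% in 24 hpf replicate 1. Passage from 80% or more in 24 hpf replicate 1 to 20% or less was seen in 0.00393% and 0.00294% of windows in the 48 hpf libraries, against 0.00589% in 24 hpf replicate 2. From 24 hpf replicate 2 it was seen in 0.267% and 0.0937% of windows in the 48 hpf libraries, against 0.313% in 24 hpf replicate 1. For each starting library, the other 24 hpf library had a larger share of such passages than the 48 hpf libraries. From 24 hpf replicate 1 these shares rest on very few of the 101885 windows, so their order there carries little weight.

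Windows in which both 48 hpf libraries lay apart from both 24 hpf libraries were listed next. The gap was the distance between the nearest libraries of the 2 stages. A gap of at least 20 points was found in 468 windows lower at 48 hpf (0.127% of those tested) and in 63 windows higher at 48 hpf (0.0171%). Without a minimum gap, the stages did not overlap in 48775 windows lower (13.3%) and 36464 windows higher at 48 hpf (9.92%). Among the 367598 windows tested, a gap of at least 30 points was found in 130 windows lower and 9 windows higher. Near the threshold, 123 falls had a gap of 20 to 22 points and 154 had one of 18 to 20 points, and for rises these numbers were 12 and 32. These windows were chosen for their difference, which is a description and was not tested as a group. The balance of falls and rises changed with the 24 hpf library used. With replicate 1 alone at 24 hpf, 931 windows were lower and 1403 higher by at least 20 points, and with replicate 2 alone 9408 were lower and 887 higher. With the odds of each library set on intermediate windows, 328 were lower and 108 higher, and with at least 40 calls in every library 205 were lower and 11 higher.

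The 468 falls came from high or intermediate levels and mostly ended at intermediate ones. Their median level was 42.0% and 43.4% in the 48 hpf libraries, against 79.1% and 81.3% in the 24 hpf libraries, while the medians over all tested windows were 1.16% and 1.3% at 48 hpf, and 0.80% and 1.74% at 24 hpf. Both 24 hpf libraries were at 80% or more in 192 of them, and both 48 hpf libraries were at 20% or less in 62. They lay on 363 scaffolds and held a median of 12 CpG sites (10th to 90th percentile 6 to 26), against 15 (8 to 25) over all windows. The 63 rises had a median level of 56.3% and 55.6% in the 48 hpf libraries, against 23.3% and 19% in the 24 hpf libraries. Both 24 hpf libraries were at 20% or less in 27 of them, and both 48 hpf libraries were at 80% or more in 5. They held a median of 20 CpG sites (7 to 33) and were thinly covered, with medians of 4.32 and 3.53 calls per CpG at 48 hpf, and 3.57 and 2.69 at 24 hpf. In the falls these medians were 9.32 and 7.27 at 48 hpf, and 6.29 and 5.91 at 24 hpf, and over all windows 12.4 and 9.61 at 48 hpf, and 8.60 and 5.12 at 24 hpf. The part of coverage in these counts was not tested.

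By CpG number, falls made up 0.270% of windows with 4 to 7 sites, 0.161% with 8 to 11, 0.0778% with 12 to 19, 0.127% with 20 to 29 and 0.163% with 30 or more. These classes differ in level, and a window near 0% cannot fall by 20 points. Among windows of 20% to 80% at 72 hpf, the shares in the same order were 1.11%, 0.992%, 0.809%, 1.01% and 0.536%. Among those at 80% or more they were 0.0143%, 0.0116%, 0.0113%, 0.0691% and 0.122%. By level at 72 hpf, 325 of the 468 were among windows of 20% to 60%, where 1.5% of windows at 20% to 40% and 1.91% of windows at 40% to 60% were falls. Among windows at 80% or more at 72 hpf, 20 were falls, which is 0.0194% of that class.

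The levels of the 72 hpf and adult libraries took no part in choosing these windows, although their coverage did, since every library had to have 20 calls. In the falls, the median level at 72 hpf was 40.2% and 40.8%, close to the 48 hpf medians, and 25% and 25.8% in adult tube feet. The 72 hpf mean lay nearer to the 48 hpf mean than to the 24 hpf mean in 402 of 468 falls (85.9%), and both 72 hpf libraries were below both 24 hpf libraries in 419 (89.5%). Both 72 hpf libraries were below both 48 hpf libraries in 135 falls. In the rises, the median level at 72 hpf was 38.8% and 41.1%, and 22.2% and 30% in adult tube feet. The 72 hpf mean lay nearer to the 48 hpf mean in 32 of 63 rises (50.8%), and both 72 hpf libraries were above both 24 hpf libraries in 47 (74.6%). The adult mean lay nearer to the 48 hpf mean in 20 rises (31.7%) and in 397 falls (84.8%). A reading that was extreme by error at 24 or 48 hpf would favour its window in this choice, and the part of such errors was not tested. The matching shares over all tested windows were not computed.

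**Figure D3:**
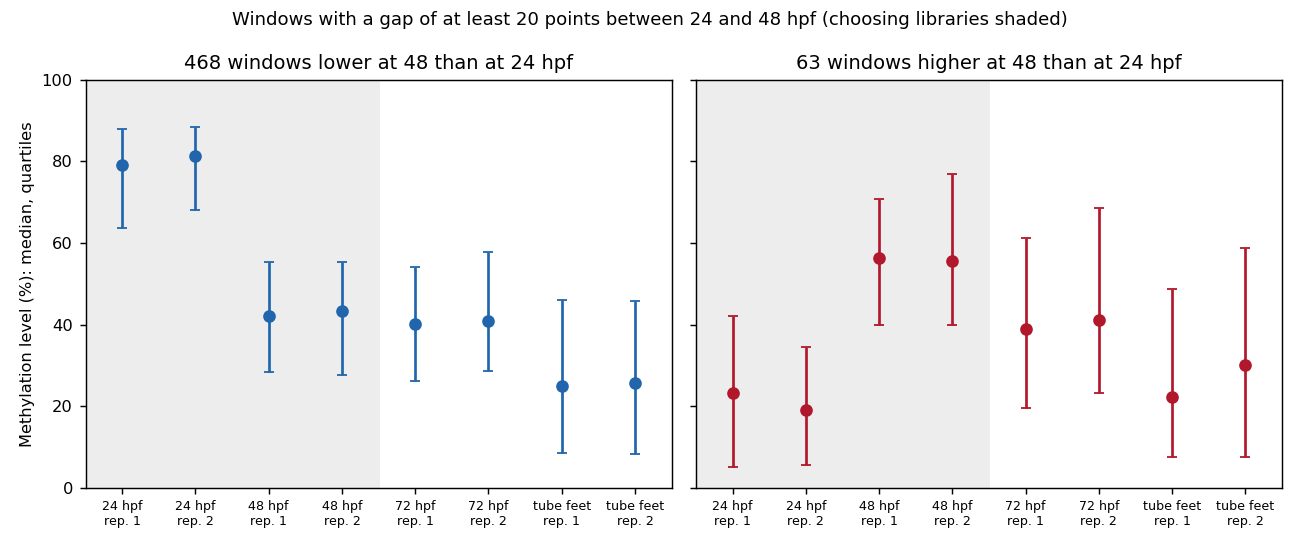
Median methylation level with quartiles in each of the 8 libraries, for the 468 windows lower at 48 hpf (left) and the 63 higher at 48 hpf (right), chosen on the shaded 24 and 48 hpf libraries. In the unshaded libraries the falls have medians of 40.2% and 40.8% at 72 hpf, near those at 48 hpf, whereas the rises have 38.8% and 41.1% at 72 hpf, between the 2 stages that chose them.

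Around the falls, the mean change was smaller in neighbouring windows than in the chosen ones. The falls were chosen for their change and their neighbours were not, which favours such a profile. The part of this choice was not tested. Averaged over the 468 windows, the level was 40.3% and 40.7% at 48 hpf, against 73.7% and 77.0% at 24 hpf, a mean change of -34.9 points. In windows 500 bp to either side with at least 10 calls in every library (158 and 188 of them), the mean change was -11 and -10.1 points, and at 1000 bp it was -5.81 and -4.29 points. At 3000 bp it was -2.31 and -2.28 points, against -1.17 points over all tested windows. That mean is not matched in level, since most tested windows were at 20% or less, and they had to pass a stricter filter. Tested windows at 60% to 80% at 72 hpf changed by a mean of -2.76 points, and those at 80% or more by -1.72 points. The surroundings were methylated, at 62.3% and 64.1% in the 48 hpf libraries and 64.3% and 66.7% in the 24 hpf libraries 3000 bp before the window. Another fall adjoined 27 of the 468, of which 202 had a tested adjacent window. Around the 63 rises, the mean change was 33.2 points in the window and 1.36 and 2.53 points in the windows on either side (25 and 28 of them).

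**Figure D4:**
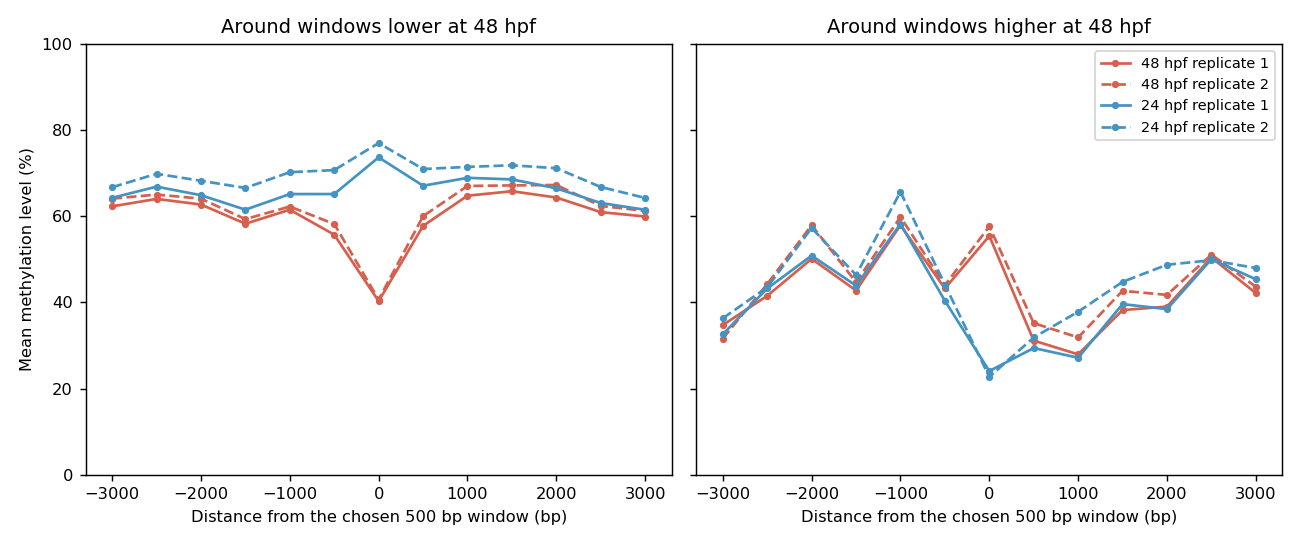
Mean methylation level of 500 bp windows against their distance from the chosen window, for 48 hpf (red) and 24 hpf (blue) libraries, around the 468 falls (left) and the 63 rises (right). Neighbouring windows with at least 10 calls in every library are drawn, 130 to 188 per distance on the left and 17 to 28 on the right. The 48 hpf lines dip to 40.3% and 40.7% at the chosen windows and come back towards the 24 hpf lines within 1000 bp.

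Longer changed stretches were few, within the limit that many windows had no tested window beside them. With a gap of at least 10 points, 2531 of the 367598 tested windows were lower at 48 hpf. They formed 2452 runs of adjacent windows, of which 68 spanned 2 windows and 5 spanned 3 or more. Of these 2531 windows, 1252 had a tested adjacent window. The longest, of 4 windows, lay at positions 58001 to 60000 of Scaffold1358 and read 37.0% and 30.8% at 48 hpf, against 72.8% and 83.7% at 24 hpf. It read 28.5% and 28.7% in the 72 hpf libraries, while adult tube feet had 28.3% and 29%. Of the 656 windows higher at 48 hpf by this gap, 313 had a tested adjacent window, and 2 runs spanned 2 windows with none longer. One of these runs was at positions 3001 to 4000 of Scaffold8579, with 50.1% and 47.6% at 48 hpf, against 19% and 14.2% at 24 hpf.

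At the finer scales, 508 windows of 200 bp were lower at 48 hpf with a gap of at least 20 points (0.140% of those tested) and 60 higher (0.0166%), and 715 single sites were lower (0.133%) and 70 higher (0.0130%). Without a minimum gap, the stages did not overlap in 12.3% of tested windows of 200 bp that were lower and 8.08% that were higher at 48 hpf, and in 10.1% and 4.62% of tested sites. Of 309 falls of 500 bp touched by a tested window of 200 bp, 237 were touched by such a fall at 200 bp, and of 28 rises 18 by a rise. A window of 200 bp across a border counted for both sides. The scales share their reads, so they are not separate readings. Nearby sites were compared next. Of 635 falling sites with another tested site within 100 bp, 338 (53.2%) had another falling site there, and the median over them of the mean change of the nearby sites was -22.1 points, against a change of -33.5 points at the sites themselves. Of 60 rising sites, 6 (10.0%) had another rising site within 100 bp, and the nearby sites changed by a median of 6.51 points, against 27.6 points at the sites themselves. Falling sites were also more numerous than rising ones, and the difference between these shares was not tested. Of 695 falling sites inside tested windows of 500 bp, 182 lay in one of the 468 falls, and of 67 rising sites 0 lay in one of the 63 rises.

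Single windows show the form of the change. The 6 falls and 6 rises with the widest gap were taken among windows with at least 50 calls in each of the 4 libraries, with at most 1 per scaffold. None was called in the quasi-binomial model with limma. The widest gap was in a window of 7 CpG sites at positions 300501 to 301000 of Scaffold946. It read 24.4% and 13.2% at 48 hpf (160 and 76 calls), against 86.9% and 89.5% at 24 hpf (107 and 57 calls), with means of 18.8% ± 7.93 and 88.2% ± 1.81 (SD, n = 2 each) and a change between pooled reads of -67.0 points (quasi-binomial model with limma, adjusted p = 0.354). It stayed low at 72 hpf, with 12.9% and 29.4%, and in adult tube feet, with 16.1% and 6.32%. All 5 of its sites with at least 5 reads in the 4 libraries, at positions 300890 to 300985, were lower at 48 hpf without overlap, with changes of -83.9 to -61.0 points. The window directly before it read 95.9% and 97.8% at 48 hpf, against 91.6% and 86.7% at 24 hpf. On the other side, the window 1000 bp away read 63.2% and 79.5% at 48 hpf, against 87.4% and 93.9% at 24 hpf, so both 48 hpf libraries were also lower there.

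The second window, at positions 116501 to 117000 of Scaffold832, holds 10 CpG sites and had the smallest adjusted p of all windows tested (0.112 in the quasi-binomial model with limma). It read 36.0% and 41.4% at 48 hpf (161 and 140 calls), against 93.8% and 94.1% at 24 hpf (80 and 187 calls), a change between pooled reads of -55.5 points. The level was lower again at 72 hpf, with 23.2% and 23.5%, and in adult tube feet, with 4.49% and 3.81%. Its 5 sites with enough reads, at positions 116611 to 116688, changed by -61.9 to -47.3 points. At position 116629, for example, 36.4% and 48.1% of reads were methylated at 48 hpf, against all of 16 and all of 16 at 24 hpf.

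The 4 other falls had the same form. The window at positions 58001 to 58500 of Scaffold1358, the first of the run described above, holds 13 CpG sites and read 34.7% and 21.3% at 48 hpf, against 86.7% and 87.8% at 24 hpf. The window at 500001 to 500500 of Scaffold489, with 8 sites, read 28.9% and 34.8% at 48 hpf, against 84.1% and 82.5% at 24 hpf. The window at 165001 to 165500 of Scaffold1122, with 11 sites, read 21.0% and 22.2% at 48 hpf, against 74.8% and 69.7% at 24 hpf. In these 3 windows all described sites, 9, 6 and 6 of them, were lower at 48 hpf without overlap. The window at 151501 to 152000 of Scaffold265, with 16 sites, held 2 of the called sites and was the most deeply covered, with 338 and 260 calls at 48 hpf, and 293 and 343 at 24 hpf. It read 34.3% and 39.2% at 48 hpf, against 86.7% and 89.5% at 24 hpf, and all 12 of its described sites were lower, with changes of -75.2 to -35.0 points. They lie at positions 151666 to 151761. In this and the other named falls, sites this close can be read from the same molecules, so they are not independent readings. Their calls also make up the gap for which the windows were chosen, so their shared direction is no separate support. The same holds for the sites of the named rises. Adult tube feet did not continue these falls everywhere. The Scaffold265 window read 31.7% and 20.6% at 72 hpf but 46.8% and 40.4% in adult tube feet, and the Scaffold1122 window read 17.0% and 11.9% at 72 hpf but 35.8% and 37.1% in adult tube feet.

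**Figure D5:**
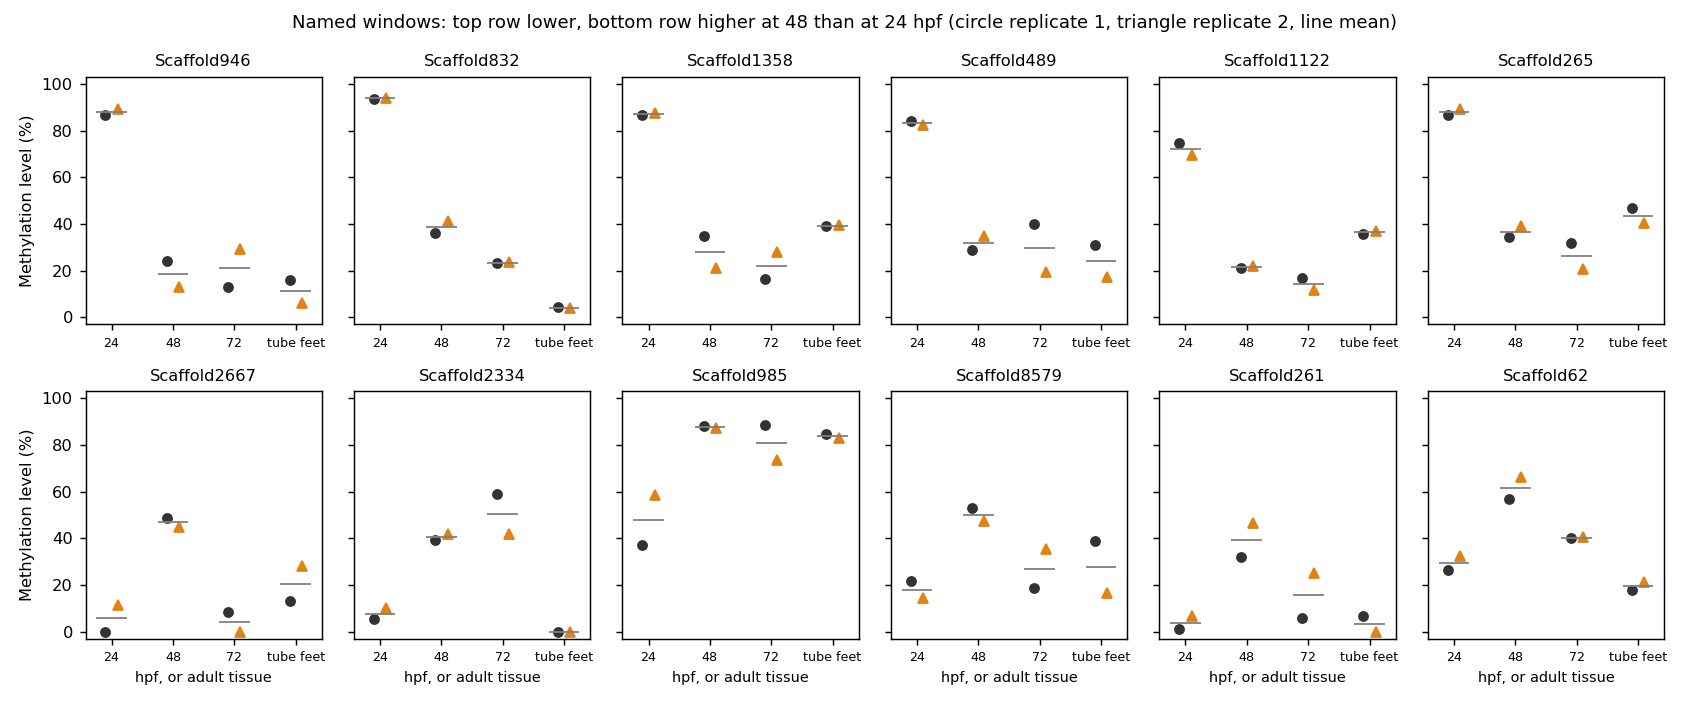
Methylation level of the 6 falls (top) and 6 rises (bottom) with the widest gap, in each library, in the order 24, 48 and 72 hpf and adult tube feet, with circles for replicate 1, triangles for replicate 2 and lines for the mean of 2 libraries. Levels of the falls at 72 hpf run from 11.9% to 40.2%, below all 24 hpf libraries, while several rises, such as that on Scaffold2667 with 8.59% and 0% at 72 hpf, are low again at 72 hpf.

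The rises were less regular. The widest gap was in a window at positions 10001 to 10500 of Scaffold2667 that holds 62 CpG sites. It read 48.7% and 44.9% at 48 hpf (78 calls each), against 0% and 11.4% at 24 hpf (204 and 740 calls). The 0 of 204 calls in 24 hpf replicate 1 allow up to 1.47% for counting error alone. At 72 hpf it read 8.59% and 0 of 102 calls, which allows up to 2.94%, and in adult tube feet 13.2% and 28.0%. Between pooled reads it changed by 37.9 points (quasi-binomial model with limma, adjusted p = 1). The second, at positions 4001 to 4500 of Scaffold2334 with 17 sites, read 39.4% and 41.8% at 48 hpf (71 and 55 calls), against 5.22% and 10.0% at 24 hpf (134 and 50 calls). It stayed higher at 72 hpf, with 59.0% and 41.8%, whereas 0 of 93 and 0 of 47 calls were methylated in adult tube feet, which allows up to 3.23% and 6.38%. No site of either window had 5 reads in each of the 4 libraries. In the windows directly before them, the 24 hpf replicates lay far apart. They read 0% and 47.4% on Scaffold2667 (41 and 190 calls) and 25.6% and 67.7% on Scaffold2334 (227 and 31 calls). The window directly after the one on Scaffold2667 read 15.1% and 23.7% at 24 hpf.

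Another rise, at positions 243001 to 243500 of Scaffold985 with 28 sites, read 88.0% and 87.1% at 48 hpf, against 37.0% and 58.4% at 24 hpf, and 88.6% and 73.4% at 72 hpf. The 9 sites of this window that could be described lie at positions 243193 to 243249, and each had 40% of 5 reads methylated in 24 hpf replicate 1. Sites this close are read from the same molecules, so the 24 hpf level there rests on few of them. On Scaffold985, the window directly before read 30% and 100% at 24 hpf (50 and 12 calls), and the window directly after 82.4% and 92.2%. The Scaffold8579 window at positions 3001 to 3500, with 33 sites, read 52.9% and 47.3% at 48 hpf, against 21.5% and 14.3% at 24 hpf. The Scaffold261 window at positions 653501 to 654000, with 23 sites, read 32% and 46.5% at 48 hpf, against 1.06% and 6.48% at 24 hpf. Of its 7 described sites, 6 were higher at 48 hpf without overlap, and the other read 0% in all 4 libraries. The Scaffold62 window at positions 134001 to 134500, with 14 sites, read 56.7% and 66.3% at 48 hpf, against 26.4% and 32.5% at 24 hpf. The stages overlapped at both of its described sites, which changed by 0.10 and 14 points. At 72 hpf these 3 windows were lower than at 48 hpf in both libraries, with 18.6% and 35.3%, 5.83% and 25.2%, and 40% and 40.6%.

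Finally, windows were chosen on one pair of libraries and read in a pair with no library in common. Of all windows, 3267 fell by at least 20 points between 24 and 48 hpf in replicate 1. In replicate 2 these windows changed by a mean of -9.79 points, against -1.77 points over all windows, and 26.5% of them fell by at least 20 points there, against 3.30% of all windows. Most windows tested were at 20% or less, so this comparison is not matched in level. By level at 72 hpf, all windows differed in this pair by -0.92 points below 20%, -11.5 at 20% to 40% and -10.1 at 40% to 60%. They differed by -4.25 points at 60% to 80% and -1.35 at 80% or more. The other values over all windows given below are likewise not matched in level. The 2572 windows that rose by at least 20 points in replicate 1 changed by -8.39 points in replicate 2, and 5.21% rose by at least 20 points, against 0.652% of all windows. Chosen the other way, 12142 windows fell by at least 20 points in replicate 2. They changed by -0.71 points in replicate 1, against -0.56 points over all windows, and 7.12% of them fell by at least 20 points there, against 0.889% of all windows. The 2396 windows that rose by at least 20 points in replicate 2 changed by -0.34 points in replicate 1. The labels do not say what a replicate number marks, so the pairs were also crossed. The 2325 windows that fell by at least 20 points for 48 hpf replicate 2 against 24 hpf replicate 1 changed by -10.6 points for 48 hpf replicate 1 against 24 hpf replicate 2, where all windows changed by -2.76 points. The 17896 windows chosen for a fall in that second pair changed by 6.81 points in the first, where all windows changed by 0.43 points. Windows chosen for a rise changed by -20.4 points in the other crossed pair where the choice used 24 hpf replicate 1 (6002 windows) and by -0.28 points where it used replicate 2 (1828 windows). Under both pairings, windows chosen against 24 hpf replicate 1 were lower on average in the other pair, which holds 24 hpf replicate 2. That was so for falls (-9.79 and -10.6 points) and for rises (-8.39 and -20.4 points). Rises chosen against replicate 2 were not higher on average in the other pair. The part of 24 hpf replicate 2 in these changes was not tested.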

How the data were processed

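For each library the authors deposited a table of CpG calls, made with MethylDackel, per the file headers, from merged, sorted and deduplicated reads. The strands of a CpG are summed, on Spur3.1 scaffolds plus lambda. Trimmomatic and Picard are also named, per the submitters' processing notes. Aligner and versions: not given in the sources used here. The deposited counts of methylated and unmethylated reads are raw. The deposited percent, cut to a whole number, was only checked against them.

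Counts were summed over sites, or windows of 200 bp (at least 3 CpG sites) and 500 bp (at least 4), with at least 20 calls in every library (10 for sites). The test was a quasi-binomial logistic fit to all 8 libraries, with a mean for each group, and its Pearson dispersion was shrunk with limma 3.58.1 (squeezeVar, coverage trend, lower bound 1, R 4.3.3). The 48 minus 24 hpf difference had an F test, Benjamini-Hochberg adjusted over all features of a scale. Features within 2.5 points of 0% or 100% got a p-value of 1, which left 171660 windows of 500 bp fitted. limma on log2 ratios used a pseudocount of 1. Reads carry no molecular identifiers here, so limits for a share of 0 (3 counts of the total) cover counting error only. The named windows are the 6 widest gaps per direction, at most 1 per scaffold, with at least 50 calls in each library compared. The windows, classes and thresholds were chosen with earlier results of these data known. No genome of Spur3.1 was at hand, so sequence and gene annotation were not analysed here. Python 3.11.15, numpy 2.4.6 and scipy 1.17.1 were used.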

Additional observations from a re-analysis of the deposited data

How the results depend on the processing

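The count of 0 called windows of 500 bp held under every alternative run except without 24 hpf replicate 1, so that the counts with 1 library left out ran from 0 to 453. At 200 bp the count was 4 with a log-odds offset per library and 0 to 318 with 1 library left out, and 0 under the others. The 9 called sites became 0 at a minimum of 5 reads, at 20 reads, in a fit on the 4 libraries compared and with the replicate number as a block, 2 with the read minimum on the 4 libraries compared, 1 with limma on log2 ratios, 35 with the offset, and 0 to 412 with 1 library left out. The causes were not tested.

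The replicate numbers share only a number, since no label says what they mark. The difference between replicates 1 and 2 correlated at 0.258 across windows between 24 and 48 hpf, at 0.0847 between 24 and 72 hpf and at 0.0635 between 48 and 72 hpf. With the replicate block, 0 features were called at each scale, and 0 windows of 500 bp with the numbers crossed at 48 hpf.

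Alternatives for windows and sites whose groups do not overlap were added after the data had been seen. Lower and higher windows of 500 bp numbered 1006 and 228 at 10 calls, 205 and 11 at 40 calls, 665 and 106 with the minimum on the 4 libraries compared, and 328 and 108 with the offset. With 1 library left out, lower windows ran from 931 to 9408 and higher from 264 to 1403. At 200 bp they numbered 1176 and 250 at 10 calls, 150 and 14 at 40 calls, 782 and 123 with the minimum on the 4 libraries compared, and 366 and 113 with the offset, and ran from 1001 to 9522 and from 294 to 1550 with 1 library left out. Single sites numbered 4782 and 1062 at 5 reads, 7 and 0 at 20 reads, 1588 and 177 with the minimum on the 4 libraries compared, and 502 and 148 with the offset, and ran from 1903 to 19754 and from 392 to 3109 with 1 library left out. Rises outnumbered falls at each scale without 24 hpf replicate 2.

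The overall difference ran from -15.2 to 2.90 points with 1 library left out and from -3.13 to -1.17 points under the 4 other weightings. The mean change of windows starting at 80% or more ran from -2.35 to -1.0 points with 1 of the 48 hpf libraries left out. It has no value without a 24 hpf library, since one sets the class. The mean change of the other replicate pair in windows chosen for a rise was -4.36 points, and -10.4 points with crossed pairs, and for a fall -5.25 and -1.91 points. For the 12 named windows, 96 alternative values kept their direction, which the choice of windows largely fixed. Groups that do not overlap cannot change places when 1 library is left out. The limma, 4-library and replicate block fits also reuse the same difference between pooled reads. No alternative with 2 libraries at each stage passed the threshold for a call. Median coverage of 16 to 26 reads per tested site limits single sites.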
